A study of Bactrocera oleae with 8 samples.

Results

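Second-instar larvae of the olive fruit fly, B. oleae, that had fed in green olives were compared with second-instar larvae that had fed in black olives. The comparison rests on 4 of the 8 two-colour Agilent arrays of the study, all on one slide, and on every contig that the array targets, 20516 contig names in all. Each channel held RNA of 20 pooled larvae, and there were 4 pools from green olives and 4 from black olives. Both sets of larvae were dissected out of infested fruit of a single orchard near Heraklion. The green olives were picked in September, while the black ones were picked in the following January. Larvae from green olives were labelled with Cy5 on all arrays and larvae from black olives with Cy3, so feeding, ripeness of the fruit, season and dye cannot be told apart. The other 4 arrays carried larvae from green olives against larvae reared on an artificial diet with olive oil, sugar, yeast and soy, and they entered the linear model to share its estimate of the spread, while their own ratios are given for a few contigs only. The paper describes 4 replicates of each feeding regime, with those of green olive larvae hybridized on both sets of arrays. On this reading the same 4 green olive pools were on both sets, and the 8 arrays of the model are not independent. Which pool was on which array is not stated. On the 4 green against black arrays alone, 321 contigs were higher in green olive larvae and 92 lower at the thresholds given below. Nothing in the sources marks the pools as related by their number. Each p-value and SE rests on the model's estimate of the spread, shared by all 8 arrays and moderated across contigs. It is not the spread of the 4 green against black arrays alone.

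The olive fruit fly is unusual among fruit flies in that its larvae live on olive flesh alone, including unripe fruit. Unripe olives are rich in phenolic compounds such as oleuropein, which binds and cross-links proteins once plant enzymes have activated it, and ripe olives are softer, richer in oil and poorer in these phenols. A larva breaks food down in the midgut with trypsins, chymotrypsins and exopeptidases behind a lining of chitin and peritrophins. It stores energy as fat made from citrate, and it modifies foreign compounds with cytochromes P450, glutathione S-transferases and glycosyltransferases.

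Few contigs of this array have a sequence in the tables at hand, and the following ones identify transcripts on which the results turn. Contig04923, described as heat shock protein 23, is shown because it was the only contig called among the 30 that the array carries with repeated probes. Of its 399 bases at hand, the 195 that end the reading frame are printed from the reverse complement, 5′ to 3′, and the capitals mark the codons of a short conserved stretch of the alpha-crystallin domain that small heat shock proteins share.
contig04923: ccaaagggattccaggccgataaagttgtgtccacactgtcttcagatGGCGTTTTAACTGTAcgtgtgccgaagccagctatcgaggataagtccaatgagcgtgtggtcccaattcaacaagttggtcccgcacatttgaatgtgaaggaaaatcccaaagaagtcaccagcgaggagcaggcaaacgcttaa
For a midgut serine protease, a trypsin, a lysozyme and a glycosyltransferase that were all higher in green olive larvae, the sequences shown are the RT-qPCR primers designed for the same transcript. All bases are in lower case because no part is singled out.
contig04367 forward primer: taagcccaggacaccaaacc
contig04367 reverse primer: accgaagacggacagaagtg
contig04849 forward primer: atccttaccaatggcagcag
contig04849 reverse primer: cggttggggtacactctcat
contig06851 forward primer: tggctcgttgggcttgtatt
contig06851 reverse primer: tgggttcgatgttgtcggtt
contig04001 forward primer: acaaacgcttcgccatttac
contig04001 reverse primer: tagctgcattttgctgatgg

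Of the 20516 contigs tested, 462 (2.25%) differed between larvae from green and black olives, at an adjusted p-value below 0.05 in limma and an absolute log2 ratio above 1. Larvae from green olives had the higher level for 357 of them (1.74% of all contigs) and the lower level for 105 (0.512%). With the scanner's own processed signals in place of the background correction and loess of the methods, 643 contigs were higher and 373 lower, and with the series' deposited log10 ratios 620 were higher and 341 lower, so that the share of higher ones dropped to 63.3% and 64.5% of calls, against 77.3%. Without the threshold on the ratio, 2487 contigs were higher (12.1%) and 2223 lower (10.8%), a nearly even split. Among all contigs, 49.7% had a log2 ratio above 0. All log2 ratios given here are green over black, and levels are normalized log2 intensities of one channel.

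**Figure D1:**
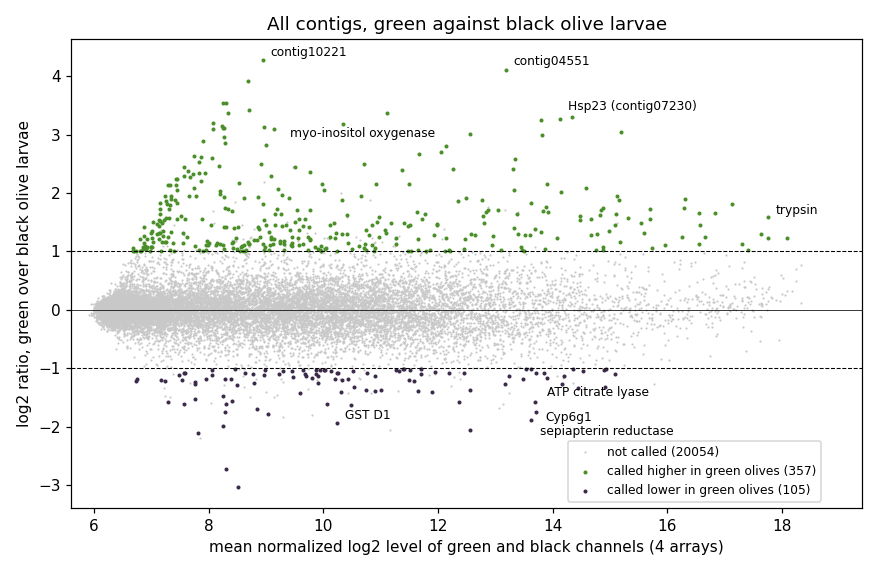
Each point is a contig, with its mean normalized log2 level over the green and black channels of 4 arrays on the horizontal axis and its estimated log2 ratio of green over black olive larvae on the vertical axis. The 357 contigs called higher in green olive larvae reach a log2 ratio of 4.27, more of them lie far from 0 than among the 105 called lower, and dashed lines mark log2 ratios of 1 and -1.

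The rises were also larger than the falls. The median log2 ratio was 1.41 among contigs higher in green olive larvae and -1.17 among those lower, and 69 contigs lay above 2 while 4 lay below -2. Many calls were close to the threshold, with 71 of the rises between 1 and 1.1 and 39 of the falls between -1.1 and -1. All 4 arrays had the same sign for 458 of the 462 contigs. The 4 pools of green olive larvae lay wholly above the 4 black olive pools for 338 of the 357 rises and wholly below them for 96 of the 105 falls, whereas over all contigs this held for 11.9% and 10.5%. Spread between pools was unequal among the contigs that fell, with a median SD of 0.188 in green olive pools and 0.381 in black olive pools, and 89 of the 105 had the larger SD in black olive pools. Over all contigs the median SD was 0.105 in green olive pools and 0.143 in black olive pools. Among the contigs that rose it was 0.299 in green olive pools and 0.267 in black olive pools, and 190 of the 357 had the larger SD in black olive pools.

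Signal limits how far the fold changes can be read. Spots well above background made up 61.1 to 64.1% of the green olive channels and 56.9 to 67.2% of the black olive channels, and no spot was saturated. Of the 462 contigs, 350 were well above background in all 8 channels. A further 42 were well above background in all 4 green olive channels and in no black olive channel, while 2 showed the reverse. For named contigs of this kind a lower bound is given. It sets the green olive mean against the black olive level of each array. Where that level was under the array's lowest signal well above background, this lowest signal took its place. Bounds and levels compare a Cy5 channel with a Cy3 channel and are open to dye bias.

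Small heat shock proteins bind unfolding proteins and keep them from clumping, and in Drosophila several of them are strongly induced by heat and by the moulting hormone. The list held 11 contigs for heat shock proteins, of which 6 were described as heat shock protein 23. Of these, 9 rose in green olive larvae, none fell and 2 were not called, and their median log2 ratio was 2.36, beside -0.00124 over all contigs. For this and every other list, the counts stand beside 1.74% of all contigs called higher and 0.512% called lower. As with the other lists here, most members come from the study's descriptions of contigs that it had called on these same samples, so the counts are not independent evidence of a direction.

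In contig07230, heat shock protein 23, levels were 15.24, 16.32, 15.36 and 16.14 in green olive pools 1 to 4, against 14.01, 11.47, 10.90 and 13.60 in black olive pools 1 to 4. The green olive pools were all high, and the black olive pools split into a pair near 14 and a pair near 11. Its log2 ratio was 3.27 ± 0.59 (SE of the model, n = 4 arrays as for all ratios here), or 9.64-fold, with an adjusted p of 0.00633. The ratios of the 4 arrays themselves had an SD of 1.69. Contig04923, whose sequence is printed above, had levels of 15.18, 15.85, 14.70 and 15.46 in green olive pools, against 14.13, 10.80, 10.86 and 13.45 in black olive pools, and a log2 ratio of 2.99 ± 0.66 with an adjusted p of 0.0146. The same black olive pools, 2 and 3, were again the low ones. In contig05507, described as a heat shock protein isoform, the green olive pools had 15.64, 16.35, 15.78 and 16.18 and the black olive pools 14.94, 10.88, 10.96 and 13.94, for a log2 ratio of 3.31 ± 0.71 and an adjusted p of 0.0131.

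Without array 3 the call was lost for contig05507 (adjusted p = 0.0564) and contig04923 (adjusted p = 0.0618), as it was with the 4 green against black arrays alone (0.0675 and 0.0534). Over the left-out arrays the ratio of contig05507 ranged between 2.59 and 4.18. Contig06606 and contig08991, both heat shock protein 23, depended less on single arrays, with log2 ratios of 3.25 ± 0.41 (adjusted p = 0.00169) and 3.04 ± 0.48 (adjusted p = 0.004). Contig05157 gave 2.10, 2.71, 2.58 and 2.07 on arrays 1 to 4, the most even ratios among the heat shock contigs above 2. Contig02911, contig05783 and contig08356 rose by smaller amounts, with log2 ratios of 1.76, 1.54 and 1.48. Contig02911 is on the list through its best match, since its description names no heat shock protein, and its call was lost without array 2 (adjusted p = 0.0591) or 3 (0.0625).

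The other 2 heat shock contigs were not called. Heat shock protein 27, contig02774, had levels of 13.26, 12.49, 13.16 and 13.41 in green olive pools, against 13.08, 11.38, 11.35 and 12.53 in black olive pools, and the groups overlapped. The log2 estimate was 0.99 ± 0.43, with an adjusted p of 0.134. Hsp83, contig00907, the fly's Hsp90 chaperone, had a ratio in the other direction, -0.63 ± 0.23 with an adjusted p of 0.0891.

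Phosphoenolpyruvate carboxykinase, the enzyme that commits carbon to glucose synthesis, shared the split between black olive pools. Contig00645 had 16.20, 16.30, 16.02 and 15.90 in green olive pools, against 15.61, 13.60, 12.30 and 15.11 in black olive pools, where pools 2 and 3 were again the low ones. The log2 ratio was 1.95 ± 0.50 with an adjusted p of 0.0258. The call was lost in 6 of the 22 settings. Among these were the fits without array 2 (log2 ratio 1.70, adjusted p = 0.0939) and without array 3 (1.36, adjusted p = 0.0803). It was also lost with the 4 green against black arrays alone (adjusted p = 0.0931), with slide row as a covariate (0.0585) and with the replicate number as a block (0.0889).

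**Figure D2:**
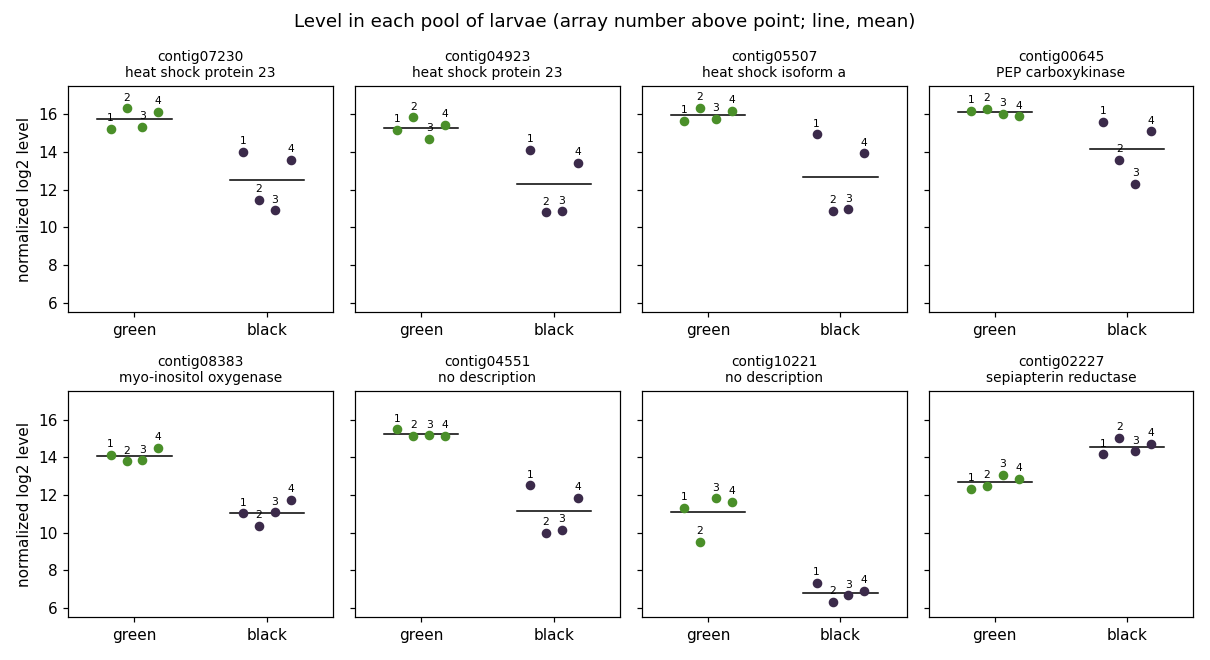
Normalized log2 level on the vertical axis in each of the 4 green olive pools (left) and 4 black olive pools (right) for 8 contigs, with the array number above each point and the group mean as a line. In the heat shock contigs, in PEP carboxykinase and in contig04551 black olive pools 2 and 3 lie below pools 1 and 4, while in myo-inositol oxygenase (contig08383) all black olive pools lie between 10.37 and 11.76 and the green olive pools between 13.79 and 14.50.

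Myo-inositol oxygenase opens the ring of inositol and so starts its breakdown to glucuronate. All 5 contigs described by this name rose in green olive larvae, with a median log2 ratio of 2.66 and groups that did not overlap in any of them. Over all contigs, green olive pools lay wholly above black olive pools for 11.9%. Contig08383 had levels of 14.15, 13.79, 13.84 and 14.50 in green olive pools and 11.03, 10.37, 11.07 and 11.76 in black olive pools. Every green olive pool was therefore at least 4 times as bright as the brightest black olive pool, and the log2 ratio was 3.01 ± 0.17, or 8.06-fold, with an adjusted p of 0.000104. The others had ratios of 2.70 ± 0.15 (contig11233), 2.66 ± 0.17 (contig07712), 2.57 ± 0.24 (contig10911) and 2.40 ± 0.26 (contig09199), with adjusted p-values between 0.000104 and 0.000903. These contigs may cover parts of 1 or a few genes, which the files do not settle. Set beside larvae on artificial diet, contig08383 had a log2 ratio of -0.04 in green olive larvae (adjusted p = 0.91) and -3.05 in black olive larvae (adjusted p = 0.00126). These comparisons share the green olive larvae and are not separate evidence.

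The contigs with the highest ratios were mostly without a functional description. Contig04551 was even in green olive pools, at 15.49, 15.13, 15.17 and 15.15, against 12.52, 9.98, 10.16 and 11.85 in black olive pools, of which pools 2 and 3 were lowest. The log2 ratio of 4.11 ± 0.36 was 17.2-fold, with an adjusted p of 0.000454, and it passed in each of the 22 alternative settings. Against artificial diet it had a log2 ratio of -0.01 in green olive larvae and -4.12 in black olive larvae.

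The highest ratio of all, 4.27 ± 0.51 in contig10221 (adjusted p = 0.00127), came from a dim signal. Levels were 11.33, 9.52, 11.83 and 11.65 in green olive pools, against 7.32, 6.32, 6.67 and 6.92 in black olive pools, and the black olive ones lay near the bottom of the scale. Another 5 of the 10 highest contigs were alike in this, namely rc_contig07925, contig06300, contig04345, rc_contig04086 and contig08678, in which rc stands for probes against the reverse complement. Their log2 ratios were 3.92, 3.53, 3.53, 3.42 and 3.36. In all 6 contigs the lowest green olive level was that of pool 2. Contig04345, which no black olive channel had well above background, had 10.29, 8.81, 10.59 and 10.34 in green olive pools and 6.89, 6.15, 6.38 and 6.48 in black olive pools and was at least 10.8-fold higher in green olive larvae (adjusted p = 0.000996).

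Green olive pool 2 was also the lowest of its group in all 5 contigs listed here as male germline genes. This was not particular to them. Pool 2 was lowest as well in the lysozyme contig06851 and the rhodopsins contig08203 and contig04859, and highest in the heat shock contig07230. How often pool 2 was lowest over all contigs was not counted. All 5 male germline contigs rose in green olive larvae, beside 1.74% of all contigs, with a median log2 ratio of 1.90. Beta-2 tubulin, contig01465, which in Drosophila is the tubulin of the sperm tail, had 9.05, 8.47, 9.33 and 9.76 in green olive pools and 7.58, 7.28, 7.41 and 7.37 in black olive pools. The groups did not overlap, and the log2 ratio was 1.74 ± 0.29 with an adjusted p of 0.00487. The sperm-leucylaminopeptidases contig04956 and contig00850, aminopeptidases found in Drosophila sperm, rose as well, the one at least 3.37-fold and the other by 1.42 ± 0.29 on the log2 scale (adjusted p = 0.0109). A pair of contigs described only by the Drosophila gene CG10252, contig08903 and contig04069, had log2 ratios of 2.96 and 1.96. Their description names no tissue. The summed level of the 5 was 10.41 to 11.92 in green olive pools and 9.23 to 9.51 in black olive pools. All 5 were well above background in all green olive channels, and 2 of them in all black olive channels. In whole larvae, fewer cells of a type and less RNA per cell cannot be told apart, and the part of male tissue in any other result was not tested.

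Serine proteases of the trypsin and chymotrypsin families cut dietary proteins inside the chain and are among the most abundant transcripts of the larval midgut. Of the 15 contigs on this list, 8 rose in green olive larvae, none fell, and 7 were not called. All 15 had a ratio above 0, with a median of 1.02, and the pools did not overlap for 14. Over all contigs, 1.74% were called higher and 49.7% had a ratio above 0. Green olive pools lay wholly above black olive pools for 11.9%. Several of the 15 were on the list because the study named them for the contrast with artificial diet.

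Contig04849, a trypsin of the delta and gamma group, had levels of 18.51, 18.60, 18.53 and 18.55 in green olive pools, against 17.09, 16.69, 17.06 and 17.02 in black olive pools. Pools within a group differed far less than the groups did, and the log2 ratio was 1.58 ± 0.14, or 2.99-fold (adjusted p = 0.000437). Contig04367, a midgut-specific serine protease, had 15.89, 15.53, 15.74 and 15.82 in green olive pools and 14.04, 13.88, 14.09 and 13.995 in black olive pools. Its ratio was 1.74 ± 0.10 on the log2 scale, or 3.35-fold (adjusted p = 0.000108), and it was called in each setting. The chymotrypsin-like contig06115 and contig04313 had log2 ratios of 1.55 ± 0.28 and 1.30 ± 0.12, with adjusted p-values of 0.00663 and 0.000482.

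Contig07006 and contig06773 match Jonah 65Aiv, a member of a family of small secreted proteases of the fly gut. Contig07006 gave 1.25, 1.24, 1.31 and 1.13 on arrays 1 to 4, among the most even ratios of any contig named here, and a log2 ratio of 1.23 ± 0.06 (adjusted p = 0.000104). Contig06773 had 1.13 ± 0.07 (adjusted p = 0.000144). The lowest calls of the list, contig02463 and contig04632, were just past the threshold at 1.03 and 1.02. Contig02463 dropped below it without array 2 (0.885) and contig04632 without array 1 (0.904) or 4 (0.981).

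The 7 proteases that were not called had log2 ratios between 0.25 and 0.93. For 6 of them the adjusted p was below 0.05 and the ratio below 1, as in the midgut trypsin contig05378 with 10.24, 9.93, 10.45 and 10.23 in green olive pools and 8.94, 9.48, 9.67 and 9.05 in black olive pools, pools that did not overlap. Without array 2 its ratio was 1.09 and it was called. The exception was the midgut-specific serine protease contig02711, with 0.25 ± 0.12 and an adjusted p of 0.188. Beside these results, the 5 midgut markers, of which 4 are also on the list of proteases, had 1 rise, no fall and a median log2 ratio of 0.82. Their summed level was 17.02 to 17.31 in green olive pools and 16.17 to 16.71 in black olive pools, and the share of midgut RNA in the result was not tested.

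**Figure D3:**
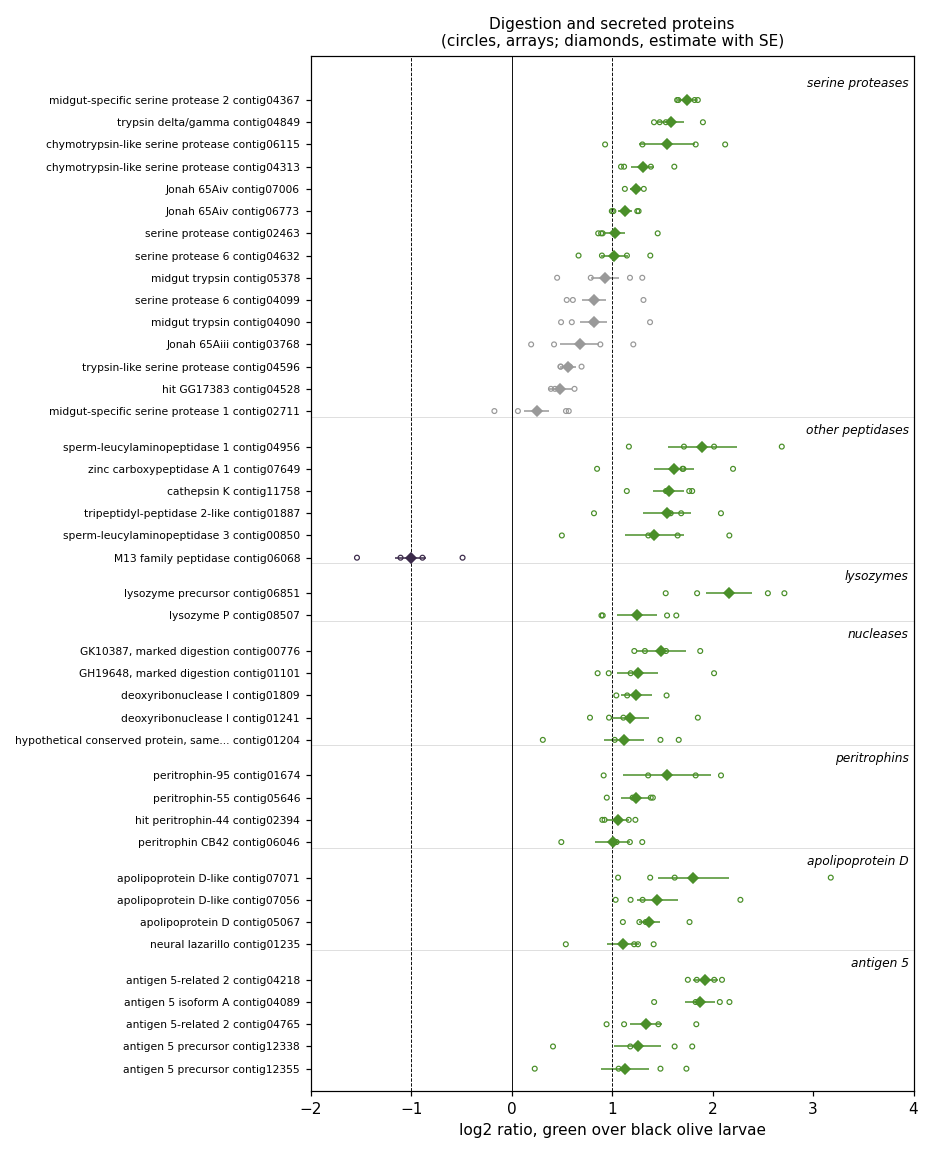
Log2 ratio of green over black olive larvae on the horizontal axis for each contig of 7 lists, one contig to a row, with open circles for the 4 arrays and diamonds for the estimate with its SE. Green marks contigs called higher in green olive larvae, dark purple contigs called lower and grey contigs not called, and of the 15 serine proteases 8 are green and all lie right of 0.

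Exopeptidases, which trim amino acids from the ends of peptides, and other peptidases made up a list of 6 contigs, of which 5 rose and 1 fell. The zinc carboxypeptidase contig07649 had 13.63, 13.19, 14.13 and 13.43 in green olive pools and 11.42, 12.34, 12.43 and 11.73 in black olive pools, with a log2 ratio of 1.62 ± 0.20 (adjusted p = 0.00152). Cathepsin K, contig11758, a lysosomal cysteine protease, had 1.56 ± 0.15 (adjusted p = 0.000664), and the tripeptidyl-peptidase contig01887 had 1.54 ± 0.24 (adjusted p = 0.00347). Both of these were dim. The peptidase of family M13, contig06068, fell by 1.01 on the log2 scale (adjusted p = 0.00348), and dropped under the threshold without array 2 (-0.972) or 3 (-0.828). The sperm-leucylaminopeptidases described above make up the rest.

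Lysozymes cut bacterial cell walls, and fruit flies use them in the gut to digest bacteria. Both lysozyme contigs rose, beside 1.74% of all contigs. Contig06851 had 13.30, 11.89, 12.14 and 12.99 in green olive pools, against 11.45, 9.34, 10.60 and 10.28 in black olive pools, without overlap, and its log2 ratio was 2.16 ± 0.23, or 4.47-fold (adjusted p = 0.000888). Lysozyme P, contig08507, had 16.86, 16.49, 17.07 and 17.13 in green olive pools and 15.96, 15.59, 15.52 and 15.49 in black olive pools. This is a log2 ratio of 1.25 ± 0.20 (adjusted p = 0.00379). Against artificial diet, the ratio of contig06851 was -0.14 in green olive larvae (adjusted p = 0.748) and -2.30 in black olive larvae (adjusted p = 0.0125).

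Nucleases, which break down dietary DNA and RNA, were higher in green olive larvae for 5 of 5 contigs, beside 1.74% of all contigs. Their median log2 ratio was 1.24. Deoxyribonuclease I, contig01809, had 17.16, 17.30, 17.28 and 17.40 in green olive pools and 16.12, 16.15, 16.05 and 15.86 in black olive pools, and a ratio of 1.24 ± 0.15 (adjusted p = 0.00142). The largest ratio was that of contig00776, 1.49 ± 0.24 (adjusted p = 0.00433). The dimmer deoxyribonuclease I contig01241, at 1.18 ± 0.19, lost its call without array 2, where the ratio became 0.953. Contig01204, at 1.12 ± 0.20, lost its call without array 2 (0.999) or 4 (0.939).

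Peritrophins are chitin-binding proteins of the lining that separates food from the gut wall. All 4 contigs rose, beside 1.74% of all contigs. Peritrophin-55, contig05646, had 14.67, 14.78, 14.66 and 14.63 in green olive pools, against 13.73, 13.58, 13.26 and 13.24 in black olive pools, which were all lower, and a log2 ratio of 1.23 ± 0.14 (adjusted p = 0.00115). Peritrophin-95, contig01674, had the larger ratio but also the larger error, 1.55 ± 0.43 with an adjusted p of 0.0358. It lost its call in 10 of the 22 settings. Among these were the fits without array 1, 2, 3 or 4 (adjusted p from 0.0564 to 0.125) and without artificial diet array 1 or 4 (0.0529 and 0.0566). The call was also lost with slide row as a covariate (0.0597) and with the replicate number as a block (0.113). The contigs contig02394 and contig06046 had log2 ratios of 1.06 and 1.003, and dropped below 1 without array 3 (0.997 and 0.905), contig06046 also without array 1 (0.990) or 4 (0.946).

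Apolipoprotein D and its fly relatives are lipocalins, secreted proteins that carry small lipids. All 4 contigs on this list rose, beside 1.74% of all contigs, with a median log2 ratio of 1.41. Contig07071 had 17.93, 17.94, 18.36 and 17.91 in green olive pools, against 16.87, 16.56, 15.18 and 16.29 in black olive pools. Array 3 alone gave a ratio above 2, since green olive pool 3 was the highest of its group and black olive pool 3 the lowest, and the log2 ratio was 1.81 ± 0.35 (adjusted p = 0.00854). Contig07056 and contig05067 had 1.45 ± 0.21 and 1.37 ± 0.11, and the Neural Lazarillo contig01235 had 1.11 ± 0.16, with adjusted p-values of 0.00248, 0.000343 and 0.00271.

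Proteins of the antigen 5 family are secreted, and in flies many are made in the gut or the salivary gland, with functions that are largely unknown. All 5 contigs rose, beside 1.74% of all contigs, with a median of 1.34. Contig04089 had 16.18, 15.93, 15.93 and 16.36 in green olive pools and 14.76, 13.86, 13.77 and 14.53 in black olive pools, and contig04218 had 9.44, 9.05, 9.22 and 9.18 in green olive pools and 7.68, 6.96, 7.20 and 7.34 in black olive pools. In neither contig did the groups overlap. Their log2 ratios were 1.87 ± 0.15 and 1.93 ± 0.12, with adjusted p-values of 0.000381 and 0.000146. Another member, contig12355, at 1.13 ± 0.24, lost its call in 8 of the 22 settings. Among these were the 4 green against black arrays alone (adjusted p = 0.0522) and the fit without array 3 (0.0558). Contig12338, at 1.25 ± 0.23, lost its call in 3 settings.

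Glycosyltransferases attach sugars to proteins, lipids or foreign compounds. Of 8 contigs, 6 rose, 1 fell and 1 was not called, beside 1.74% higher and 0.512% lower over all contigs. Contig04001, described as an N-acetyllactosaminide N-acetylglucosaminyltransferase, led the list with 9.34, 9.57, 9.05 and 9.65 in green olive pools and 7.23, 6.82, 6.91 and 6.85 in black olive pools. The log2 ratio was 2.45 ± 0.13, or 5.48-fold (adjusted p = 0.000104), and the call held in each setting. The others that rose lay between 1.02 (contig06187) and 1.14 (contig09650). Of these, contig01274 lost its call without array 2 (0.934) or 4 (0.985), contig05006 without array 3 (0.981) and contig06187 without array 2 (0.990) or 4 (0.990). So did contig01323 without array 2 (0.919) or 4 (0.973). The procollagen galactosyltransferase contig01952 fell by 1.004 on the log2 scale (adjusted p = 0.0485), largely through array 2, with ratios of -0.43, -2.29, -0.46 and -0.83 on arrays 1 to 4. It lost its call without any one of these arrays (adjusted p from 0.0505 to 0.107) and without artificial diet array 2, 3 or 4 (0.0654, 0.0681 and 0.0737), and without array 2 its ratio was -0.575. UDP-glycosyltransferase 37C1, contig02020, had -0.41 ± 0.16 (adjusted p = 0.102).

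Cytochromes P450 oxidise foreign compounds and hormones, and none of 6 contigs on the list rose. Cyp6g1, contig06535, an enzyme known for insecticide resistance in Drosophila, had 12.75, 13.28, 12.24 and 13.09 in green olive pools, against 14.60, 14.14, 15.06 and 14.54 in black olive pools. All green olive pools were lower, and the log2 ratio was -1.74 ± 0.31 (adjusted p = 0.00577), so that the level in black olive larvae was 3.35 times that in green olive larvae. Contig02809 had the opposite sign, 1.19 ± 0.37, and an adjusted p of 0.0512. Array 2 gave a ratio of 2.82 for it and the other arrays gave at most 0.92. It was called in 5 of the 22 alternative settings, with adjusted p-values from 0.0387 to 0.0478. The remaining 4 had log2 ratios between -0.80 and -0.16. Contig10157 among them was called lower in 4 of the 22 settings. Its ratio was -2.10 with the scanner's processed signals and with the deposited ratios.

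Glutathione S-transferases couple reactive compounds to glutathione. The 4 contigs had log2 ratios below 0, and 1 of them was called. Glutathione S-transferase D1, contig08281, had 9.14, 8.64, 9.60 and 9.72 in green olive pools and 10.92, 12.06, 11.03 and 10.84 in black olive pools, with black olive pool 2 the highest. The log2 ratio was -1.94 ± 0.38 (adjusted p = 0.00882). The other 3 had -0.94 (contig09042), -0.80 (contig07812) and -0.26 (contig03074), and pools of contig03074 overlapped. Contig09042 was called lower in 7 of the 22 settings, among them without array 2 (-1.03) or 3 (-1.01) and with the scanner's processed signals (-1.16). Contig07812 was called lower in 2, with the processed signals and with the deposited ratios (-1.003 in both). In a list of 3 further contigs for esterases and a transporter, the ABC transporter contig03867 rose by 1.21 ± 0.07 (adjusted p = 0.000108) with green olive pools at 13.08, 13.09, 13.10 and 13.04 and black olive pools at 12.10, 11.71, 11.85 and 11.82. An alpha-esterase, contig02152, rose by 1.03 ± 0.15 (adjusted p = 0.00297), which dropped to 0.857 without array 2. The carboxylesterase contig00333 had 0.63 ± 0.12 and was not called.

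Fat is built from citrate, which a carrier moves out of the mitochondrion, ATP citrate lyase splits to acetyl-CoA and acetyl-CoA carboxylase commits to fatty acids. All of these steps were lower in green olive larvae. ATP citrate lyase, contig01047, had 12.78, 12.75, 13.05 and 13.03 in green olive pools, against 14.16, 14.61, 15.18 and 13.94 in black olive pools, and the groups did not overlap. This gave a log2 ratio of -1.57 ± 0.20 (adjusted p = 0.00163), so that it was 2.97-fold higher in black olive larvae. Acetyl-CoA carboxylase, contig01325, had 12.30, 12.47, 12.55 and 12.82 in green olive pools and 13.46, 14.01, 14.30 and 13.43 in black olive pools, with a log2 ratio of -1.26 ± 0.17 (adjusted p = 0.00226). The tricarboxylate carrier contig02942 had -1.03 ± 0.15 (adjusted p = 0.00309) and dropped under the threshold without array 2 (-0.872) or 3 (-0.920). In each of these contigs black olive pools 2 and 3 were the highest, as they were the lowest in the heat shock contigs.

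The whole list of lipid metabolism held 8 contigs, of which 2 rose and 6 fell, with a median log2 ratio of -1.13. A 3-hydroxybutyrate dehydrogenase, contig04692, which acts on ketone bodies, had the largest fall at -1.61 ± 0.29 (adjusted p = 0.00611). The 3-hydroxyacyl-CoA dehydrogenase contig01313, a step of fatty acid breakdown, had even values, with 14.47, 14.76, 14.37 and 14.57 in green olive pools and 15.30, 15.74, 15.60 and 15.89 in black olive pools, and a log2 ratio of -1.09 ± 0.09 (adjusted p = 0.000435). The phytoene or squalene synthetase contig08426 fell by 1.17 on the log2 scale, and its ratio was -0.898 without array 2. Members that fell thus belonged to breakdown as well as to synthesis. The members that rose were contig04780, named as a 3-oxoacyl-acyl-carrier-protein reductase, with 1.68 ± 0.15 (adjusted p = 0.000509), and the phospholipase A1 contig04753, with 1.01 ± 0.17 (adjusted p = 0.00491), which dropped to 0.806 without array 2.

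**Figure D4:**
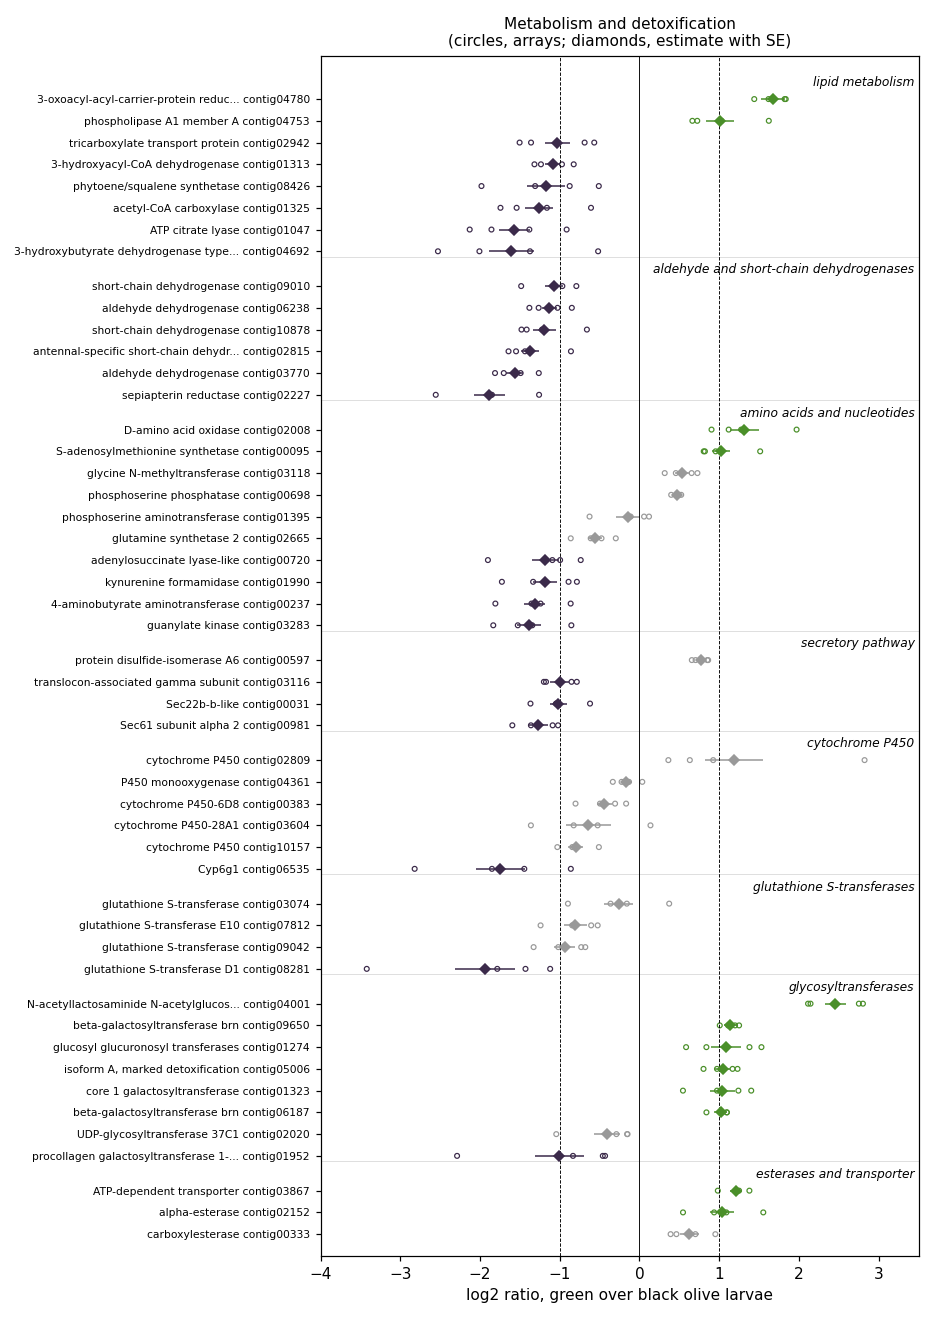
Log2 ratio of green over black olive larvae on the horizontal axis for each contig of 8 lists of metabolism and detoxification, with open circles for the 4 arrays and diamonds for the estimate with its SE. Green marks contigs called higher in green olive larvae, dark purple contigs called lower and grey contigs not called; all 6 aldehyde and short-chain dehydrogenases and 6 of 8 lipid contigs are dark purple.

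Aldehyde dehydrogenases and short-chain dehydrogenases oxidise or reduce aldehydes, alcohols and steroids. All 6 contigs of this kind fell in green olive larvae, with a median log2 ratio of -1.28 and no overlap between groups. Over all contigs, green olive pools lay wholly below black olive pools for 10.5%. Sepiapterin reductase, contig02227, which makes the cofactor tetrahydrobiopterin, had 12.31, 12.48, 13.07 and 12.84 in green olive pools and 14.16, 15.04, 14.33 and 14.72 in black olive pools. The ratio on the log2 scale was -1.88 ± 0.20 (adjusted p = 0.000838), and black olive larvae had 3.69 times the level of green olive larvae. The aldehyde dehydrogenases contig03770 and contig06238 had -1.57 ± 0.10 (adjusted p = 0.000146) and -1.13 ± 0.10 (adjusted p = 0.000445). The short-chain dehydrogenases contig02815, contig10878 and contig09010 had -1.37, -1.19 and -1.07, and that of contig09010 was -0.939 without array 3.

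Enzymes of amino acids and nucleotides went both ways, with 2 of 10 contigs higher, 4 lower and 4 not called. Guanylate kinase, contig03283, was nearly constant in green olive pools at 10.18, 10.23, 10.21 and 10.22, against 11.04, 12.06, 11.56 and 11.74 in black olive pools, and its log2 ratio was -1.39 ± 0.15 (adjusted p = 0.000915). The 4-aminobutyrate aminotransferase contig00237, kynurenine formamidase contig01990 and the adenylosuccinate lyase-like contig00720 had -1.32 ± 0.13, -1.18 ± 0.15 and -1.18 ± 0.17, with adjusted p-values of 0.000788, 0.00156 and 0.00251. Without array 2 that of contig00720 was -0.942. D-amino acid oxidase, contig02008, rose by 1.32 ± 0.18 (adjusted p = 0.00232), and S-adenosylmethionine synthetase, contig00095, which makes the methyl donor of the cell, by 1.02 ± 0.11 (adjusted p = 0.000926), which dropped to 0.860 without array 3.

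Secretory proteins enter the endoplasmic reticulum through the Sec61 channel. Of 4 contigs on the list of this pathway, 3 fell and none rose. The Sec61 alpha subunit, contig00981, had 13.50, 13.54, 13.39 and 13.69 in green olive pools and 14.52, 14.90, 14.98 and 14.78 in black olive pools, with a log2 ratio of -1.27 ± 0.12 (adjusted p = 0.000559). The vesicle protein contig00031 had -1.02 ± 0.11 and the translocon-associated gamma subunit contig03116 had -1.003 ± 0.11. Both dropped under the threshold without array 2 (-0.903 and -0.946), and contig03116 also without array 3 (-0.937). With median centring in place of loess both were under it as well (-0.971 and -0.942), and contig03116 also with slide row as a covariate (-0.955), with the scanner's processed signals and with the deposited ratios (-0.976 in both). Protein disulfide-isomerase A6, contig00597, which helps new proteins to fold, had the opposite sign at 0.77 ± 0.06 and was not called.

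Carbohydrate and energy metabolism had 8 rises and 1 fall among 10 contigs, beside 1.74% higher and 0.512% lower over all contigs. The median of the 10 was 1.69, but several of the rises came from contigs near background. Alcohol dehydrogenase contig06994, cytochrome c oxidase contig06871 and glyceraldehyde-3-phosphate dehydrogenase contig01821 had no black olive channel well above background, and were at least 4.22-fold, 3.75-fold and 3.01-fold higher in green olive larvae. Arginine kinase contig01097 was also dim, with 8.34, 7.58, 8.64 and 8.89 in green olive pools and 6.78, 6.32, 6.56 and 6.49 in black olive pools, and a log2 ratio of 1.82 ± 0.30 (adjusted p = 0.00426). Members that rose and were well above background in all 8 channels were the cytochrome c oxidase contig09264, at 1.56 ± 0.17 (adjusted p = 0.000957), the sugar transporter contig09183, with 12.63, 12.78, 12.11 and 12.75 in green olive pools and 11.46, 10.50, 11.58 and 11.57 in black olive pools and a log2 ratio of 1.29 ± 0.26 (adjusted p = 0.0098), and PEP carboxykinase above. Without array 2 the ratio of contig09183 was 0.958. Transaldolase, contig02586, an enzyme of the pentose phosphate route that also supplies reducing power, fell with 14.39, 14.33, 14.55 and 14.41 in green olive pools and 15.003, 15.68, 15.79 and 15.28 in black olive pools, at -1.02 ± 0.13 (adjusted p = 0.00152), and dropped under the threshold without array 2 (-0.907) or 3 (-0.944). Maltase A2, contig02414, had 0.21 ± 0.14 (adjusted p = 0.349) and overlapping pools.

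Odorant-binding proteins and takeout proteins carry small hydrophobic molecules. Odorant-binding protein 8a, contig07577, had 12.29, 13.33, 12.94 and 12.62 in green olive pools, against 9.29, 8.90, 8.99 and 10.50 in black olive pools, and did not overlap. The log2 ratio was 3.37 ± 0.42, or 10.4-fold (adjusted p = 0.00152). The contig04487, named for a circadian clock-controlled protein of the takeout family, had 2.34 ± 0.18 (adjusted p = 0.000311) and was called in each setting. Another odorant-binding protein, contig07104, had 1.01 ± 0.10 (adjusted p = 0.000697) and dropped to 0.867 without array 3. The fourth member, contig01890, fell by 1.78 on the log2 scale (adjusted p = 0.00273).

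The contigs with the lowest ratios did not belong to one group. The lowest with the same sign on every array was rc_contig05454, a probe set for a reverse strand, with 6.13, 8.36, 6.31 and 6.23 in green olive pools and 6.18, 9.71, 9.28 and 10.25 in black olive pools. The groups overlapped, and the ratio of -2.10 ± 0.60 (adjusted p = 0.0373) lost its call without array 2, 3 or 4 (adjusted p of 0.0635, 0.133 and 0.13) and without artificial diet array 2, 3 or 4 (0.0564, 0.0517 and 0.0577). Without array 4 its log2 ratio was -1.46, and without array 1 it was -2.78. Contig00962 was more stable, with 11.34, 11.72, 11.51 and 11.54 in green olive pools and 12.62, 15.14, 13.03 and 13.55 in black olive pools, of which pool 2 was highest. The estimate on the log2 scale was -2.06 ± 0.32 (adjusted p = 0.00372). Also among the lowest were contig09851, a helicase-like protein, at -1.98 ± 0.20, contig13744 at -1.74 ± 0.15, the A-kinase anchor protein contig07357, which tethers protein kinase A, at -1.69 ± 0.24, and the quaking-related contig01876, an RNA-binding protein, at -1.62 ± 0.10.

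The 4 called contigs whose arrays did not all agree in sign were rc_contig00932 (log2 ratio -3.02), contig01400 (-2.71), rc_contig03245 (-1.57) and contig08646 (1.44), named here after their values were seen. The first 3 were well above background on 1 green olive and 3 black olive channels. All 4 lost their calls without array 2 (adjusted p from 0.0562 to 0.0712), 3 (0.0695 to 0.158) or 4 (0.0784 to 0.161), and with the 4 green against black arrays alone (0.0918 to 0.121). Without artificial diet array 2, 3 or 4 the call of rc_contig00932 was lost (0.0653, 0.0595 and 0.0655), and without array 4 of that set the call of rc_contig03245 (0.0506).

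Of the 30 contigs that the array carries with repeated probes, mostly ribosomal proteins, tubulins, actin and other genes of general cell function, 1 was called, and this was heat shock protein 23, contig04923. The median log2 ratio of the 30 was -0.04. The ribosomal protein gene Rp49, contig07359, a common internal control in flies, had 16.40, 16.39, 16.38 and 16.39 in green olive pools, against 16.45, 16.34, 16.27 and 16.37 in black olive pools, a log2 ratio of 0.03 ± 0.04 (adjusted p = 0.599). The log2 ratio of alcohol dehydrogenase 2, contig03652, was -1.24 ± 0.45 (adjusted p = 0.081), with black olive pool 3 far above the others at 16.41 and overlapping groups, and the ratio was -0.627 without array 3.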

How the data were processed

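For every array the authors deposited what the scanner software wrote, Feature Extraction 10.7.3.1 per the file headers (10.5 in the submitters' processing notes). It holds the median pixel intensity of every spot and of its local background, not normalized, which was used here. The deposited files also give the scanner's processed intensity and a log10 ratio of Cy5 over Cy3, as does the series' value table, and these served as alternatives.

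As in the methods, median intensities went through normexp background correction (offset 50), loess within arrays and Aquantile between arrays, then lmFit and eBayes, in R 4.3.3 with limma 3.58.1. The 1319 control spots were left out after background correction, and 46 to 128 outlier spots per array got no weight. Spots of a probe were averaged, then probes of a contig. The model had a coefficient for each set of 4 arrays and 6 residual degrees of freedom, to which eBayes added 2.21. Adjustment of p-values followed Benjamini-Hochberg over 20516 contigs, of which 4 lacked a value on some array. Precision is limited by 4 arrays. The averaging, the fit and the calls were tested on simulated ratios, which did not pass through background correction or normalization.

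Named contigs are the 10 highest and 10 lowest ratios among called contigs with the same sign on all arrays, those that the study's text or primers single out, up to 4 called members of each list with the largest ratios, and members needed to account for a list. The called contigs whose arrays differ in sign were added after their values were seen. Members and lists were chosen with earlier results of these data known. Descriptions are the study's, and no genome coordinates were used here. Alternatives covered background correction, normalization, probes, outliers, a filter on dim contigs, the test, covariates and each array left out. RT-qPCR and symbiont sequencing were not analysed here.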

Additional observations from a re-analysis of the deposited data

Results flagged for a closer look

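For each of 196 named or listed contigs, the 4 array ratios, the 4 green olive levels and the 4 black olive levels were checked for a single value far from the other 3. Of these 588 sets of 4 values, 28 (4.76%) had such a value, with a gap that took up more than 0.829 of the whole range. Chance gives about 1 in 20.

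Green olive levels accounted for 14 of the 28. In rc_contig04086 green olive pool 2 had 9.06, against 10.82 to 10.88 in the others (0.965 of the range), and in contig04345 pool 2 had 8.81, against 10.29 to 10.59 (0.832). The procollagen galactosyltransferase contig01952 had 10.39 in pool 2, against 11.02 to 11.15 (0.831). Pool 2 was also apart in rc_contig05454, at 8.36 against 6.13 to 6.31 (0.919), in contig01400, at 9.06 against 6.198 to 6.32 (0.957), and in rc_contig00932, at 9.49 against 6.09 to 6.25 (0.952), and these 3 contigs were well above background in 1 green olive channel only. Pool 1 stood apart in the chymotrypsin-like contig06115, at 16.05 against 16.60 to 16.62 (0.963), and in contig04551, at 15.49 against 15.13 to 15.17 (0.875). In pool 3 the apolipoprotein D-like contig07071 had 18.36, against 17.91 to 17.94 (0.923), and the myosin heavy chain contig04073 had 10.06, against 9.55 to 9.62 (0.856). Osiris 15, contig04794, had 7.90 in pool 3, against 10.20 to 10.41 (0.915). Pool 3 stood apart as well in 3 contigs that were not called, a transposase, contig02335, at 7.72 against 7.46 to 7.497 (0.847), succinate dehydrogenase, contig00512, at 13.66 against 13.55 to 13.56 (0.847), and phosphoserine aminotransferase, contig01395, at 12.18 against 12.43 to 12.48 (0.834).

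Black olive levels made up 10. In pool 1 the aldehyde dehydrogenase contig03770 had 12.45, against 13.33 to 13.42 in the others (0.909), and rc_contig04086 had 7.32, against 6.85 to 6.92 (0.86). Pool 1 was far below the others in contig01400, at 6.21 against 10.62 to 10.95 (0.931), and in rc_contig00932, at 6.11 against 10.92 to 11.7 (0.861). In pool 2 glutathione S-transferase D1, contig08281, had 12.06, against 10.84 to 11.03 (0.84), contig13744 had 9.79, against 8.86 to 8.98 (0.87), and ribosomal protein L13a, contig11288, had 15.68, against 15.53 to 15.55 (0.871). Pool 2 was the low one in the cytochrome c oxidase contig09264, at 8.002 against 9.03 to 9.07 (0.959), in the sugar transporter contig09183, at 10.50 against 11.46 to 11.58 (0.888), and in the prophenoloxidase contig02081, at 11.95 against 12.49 to 12.51 (0.962).

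The ratios of single arrays made up the other 4. The heat shock contig05783 had 1.06 on array 1, against 1.67 to 1.71 (0.943), the serine protease contig02463 had 1.45 on array 2, against 0.861 to 0.905 (0.926), UDP-glycosyltransferase 37C1, contig02020, had -1.04 on array 2, against -0.29 to -0.15 (0.844), and alcohol dehydrogenase 2, contig03652, had -3.10 on array 3, against -0.76 to -0.39 (0.862). No explanation was tested for any of these values.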

How the results depend on the processing

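Counts of calls were recomputed under 22 alternative settings. With the scanner's processed signals there were 643 contigs higher and 373 lower in green olive larvae, and with the series' deposited log10 ratios 620 and 341, against 357 and 105. These kept 347 and 98, and 339 and 94, of the same contigs. With limma's treat, which tests against a log2 ratio of 1, there were 19 higher and 0 lower, or 189 and 29 at an unadjusted p below 0.05. Leaving out a green against black array gave 299 to 405 higher and 79 to 131 lower, and leaving out an artificial diet array stayed within these ranges. The causes were not tested. The other settings stayed within 1.5 times.

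Arrays with the same number in the 2 sets did not deviate together, with correlations of -0.35, -0.70, -0.10 and 0.46 for numbers 1 to 4. The highest correlation between an array of one set and an array of the other was 0.78, between array 2 and artificial diet array 1. With the replicate number as a block, 317 contigs were higher and 93 lower, and 15 of 135 named or listed contigs that were called lost their calls, among them contig04923 (adjusted p = 0.0599), contig11487 (0.0836) and contig07071 (0.0509). With the 4 green against black arrays alone 15 of the 135 calls were lost, with slide row as a covariate 14, and without array 1, 2, 3 or 4 it was 7, 32, 29 and 16. Of the 135, 9 passed in every setting and another 74 in all but treat. Of 61 listed but not called, 11 passed in at least one setting, and 11 had a ratio of either sign across settings. None of the 135 changed sign. Mean pixel intensities were not run, since the columns used here hold medians. With 4 arrays and 112 of the 462 called contigs not well above background in all 8 channels, ratios near 1 and ratios of dim contigs are the least certain.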

Other observations

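Cuticle and pigment genes were higher in green olive larvae for 5 of 7 contigs, lower for 1 and not called for 1, with a median log2 ratio of 1.63. Contig11487, cuticular protein 65Au, a structural protein of the chitin layer, had 15.65, 15.96, 15.30 and 15.86 in green olive pools, against 14.15, 12.50, 14.44 and 14.88 in black olive pools, where pool 2 was the low one. Its log2 ratio was 1.70 ± 0.42 (adjusted p = 0.0218) and dropped to 1.11 without array 2. With the 4 green against black arrays alone its call was lost (adjusted p = 0.0767). The contigs contig11298 and contig11595 have the same description and nearly the same values, and each lost its call in 5 of the 22 settings. Among these were the fits without array 1 (adjusted p of 0.0515 and 0.0523) and with the 4 arrays alone (0.0794 and 0.08). Contig01210, a yellow precursor of the family that takes part in dark pigment, was more even, with 17.41, 17.28, 17.39 and 17.44 in green olive pools and 16.22, 15.79, 15.30 and 15.57 in black olive pools and a log2 ratio of 1.66 ± 0.22 (adjusted p = 0.00207). Osiris 15, contig04794, fell by 1.197 on the log2 scale (adjusted p = 0.0489) with overlapping pools, and lost its call without array 2 (0.158), 3 (0.17) or 4 (0.063), without artificial diet array 2, 3 or 4 (0.0631, 0.0712 and 0.0726) and with the 4 arrays alone (0.109).

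All 3 contigs with salivary gland descriptions rose, contig06700 by 1.56 ± 0.24, contig06215 by 1.28 ± 0.29 and the prolyl-4-hydroxylase contig00438 by 1.04 ± 0.14, with adjusted p-values of 0.00346, 0.0162 and 0.00215. Without array 2 or 3 contig06215 lost its call (adjusted p of 0.0611 and 0.0617), and without array 4 contig00438 dropped to 0.861. Of 4 photoreceptor contigs 3 rose, the rhodopsins contig08203 and contig04859 by 1.497 ± 0.20 and 1.45 ± 0.13 and arrestin contig00428 by 1.03 ± 0.16, which dropped to 0.877 without array 3. Rhodopsin 3, contig03383, went the other way, with 7.61, 7.82, 7.61 and 8.19 in green olive pools, against 8.75, 8.82, 9.21 and 9.14 in black olive pools, and a log2 ratio of -1.18 ± 0.14 (adjusted p = 0.00146).

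Muscle markers had 2 falls among 4 contigs. The myosin heavy chain contig04073 had -1.07 ± 0.20 and contig10092 had -1.04 ± 0.20, and both dropped under the threshold without array 2 (-0.905 and -0.852). Tropomyosin, contig02423, had 0.48 ± 0.10 and a muscle-specific actin, contig01036, 0.12 ± 0.08. The 2 prophenoloxidases, which blood cells use to make melanin, had log2 ratios of -0.97 ± 0.25 (contig02081) and -1.03 ± 0.37 (contig01992), with overlapping pools, and neither was called. Without array 2 both were, at -1.24 and -1.46, and contig02081 also without array 1 (-1.104).

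Contigs that resemble mobile elements split, with 3 of 8 higher and 2 lower. The Tc3-like contig07038 had 10.56, 10.38, 11.13 and 10.83 in green olive pools and 8.22, 7.99, 8.90 and 8.03 in black olive pools, with a log2 ratio of 2.44 ± 0.18 (adjusted p = 0.000254). Contig03145, a piggyBac transposase, had 1.63 ± 0.16 (adjusted p = 0.000704), and a reverse transcriptase, contig00694, had -1.23 ± 0.23 (adjusted p = 0.00727), which became -0.914 without array 2. Among 3 virus-like contigs, an outer coat protein, contig05647, had 1.01 ± 0.26 (adjusted p = 0.025) and lost its call without array 2 or 3 (adjusted p of 0.0814 and 0.0961) and with the 4 arrays alone (0.0876). The nucleocapsid protein contig04635 had 0.96 ± 0.29 (adjusted p = 0.0457) and was not called, since the ratio was below 1, although it passed without array 1 (1.18). Pools overlapped in both, and the nonstructural polyprotein contig00002 was well above background in no channel. Of the 30 contigs that the study's text or primers single out, 21 rose, none fell and 9 were not called. Over all contigs, 1.74% rose and 0.512% fell. The study singled out many of the 30 from its own calls on these same samples, so the count is not independent evidence of a direction.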
